A study of Mus musculus with 202 samples.

Results

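E-cadherin, 2 other classical cadherins, the catenins and vinculin were followed, cell by cell, in a mouse line of pancreatic ductal adenocarcinoma that had been sorted for E-cadherin protein. The 7 genes, Cdh1, Cdh2, Cdh3, Ctnna1, Ctnnb1, Ctnnd1 and Vcl, were taken by symbol from the 28987 genes of the table, and all 7 were found. They were chosen for their roles, with earlier results of these data known. The questions were whether the loss of E-cadherin reached its partners and whether another cadherin took its place. Ecad- cells are the fraction without E-cadherin staining and Ecad+ cells the fraction with it. Both came from 1 male KPC line that was derived from a liver metastasis, grown in DMEM with 10% FBS, detached with trypsin, stained with an anti-E-cadherin antibody and sorted on a FACSAria. KPC is the usual name of a genetically engineered mouse model of pancreatic cancer; the labels give the name and no alleles. The sort read protein at the cell surface, whereas the table reads mRNA.

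Classical cadherins span the membrane at adherens junctions and bind the same kind of cadherin on the neighbouring cell. Their cytoplasmic tail holds p120-catenin (Ctnnd1), which slows the uptake of the cadherin, and β-catenin (Ctnnb1), which links to α-catenin (Ctnna1). α-catenin binds actin and, under tension, recruits vinculin (Vcl). E-cadherin (Cdh1) is the main classical cadherin of epithelia, including pancreatic ducts. In epithelial-to-mesenchymal transition it is often lost while N-cadherin (Cdh2) appears, a change known as the cadherin switch, and P-cadherin (Cdh3) is found in some pancreatic tumours.

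Each group was 1 sample of cells, so no p-value is given, and SDs describe the spread over cells. The table held 98 Ecad- and 104 Ecad+ libraries in 3 library sets, told apart by a suffix of the library name whose meaning is not stated. One pair of Ecad- libraries and 4 pairs of Ecad+ libraries correlated above 0.97 over all genes and were averaged, which left 97 Ecad- and 100 Ecad+ cells. Levels are TPM, a share of the cell's transcripts that is corrected for transcript length and does not keep read depth. The median cell had 8694 genes above 0 in Ecad- cells and 10338 in Ecad+ cells. Mitochondrial genes took under 1% of TPM in 40 Ecad- cells and in 1 Ecad+ cell, called low-share cells here. Ductal epithelial markers were present in both groups, with Krt8 above 0 in 96 of 97 Ecad- cells and 100 of 100 Ecad+ cells, while Ptprc and Col3a1 were listed at 0 in every cell. Ratios are log2 of the mean TPM plus 1 in Ecad- cells over the same in Ecad+ cells. An expression floor (mean 5 TPM or more, detected above 0 in 10% of cells or more) left 7227 genes, over which the median ratio was 0.31 (0.14 without low-share cells), and a centred ratio is the ratio minus this median. A gene was called when its centred ratio was at least 1 in size and had that sign in all 3 library sets.

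Cdh1 mRNA was lower in Ecad- cells, and of the partners none was called over all cells. Ctnnb1 was called lower among cells within a common window of gene number. The groups still differed in that window, with medians of 8974 genes in Ecad- cells and 10130 in Ecad+ cells. Among the 7 genes, Cdh2 and Cdh3 lay below the expression floor, and of the other 5 only Cdh1 was called lower and none higher. Over all genes above the floor, 7.2% were called lower and 7.43% higher. The median centred ratio of the 5 was -0.83, against 0 over all genes by construction, and it was -0.53 without low-share cells. Cdh1, Ctnna1, Ctnnb1 and Ctnnd1 lay below the all-gene median in each library set, as did 2132 of the 7227 genes. The 7 levels summed to between 0.0388 and 400.9 TPM in an Ecad- cell, with a median of 102.4, and to between 50.3 and 386 TPM in an Ecad+ cell, with a median of 143.8.

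**Figure D1:**
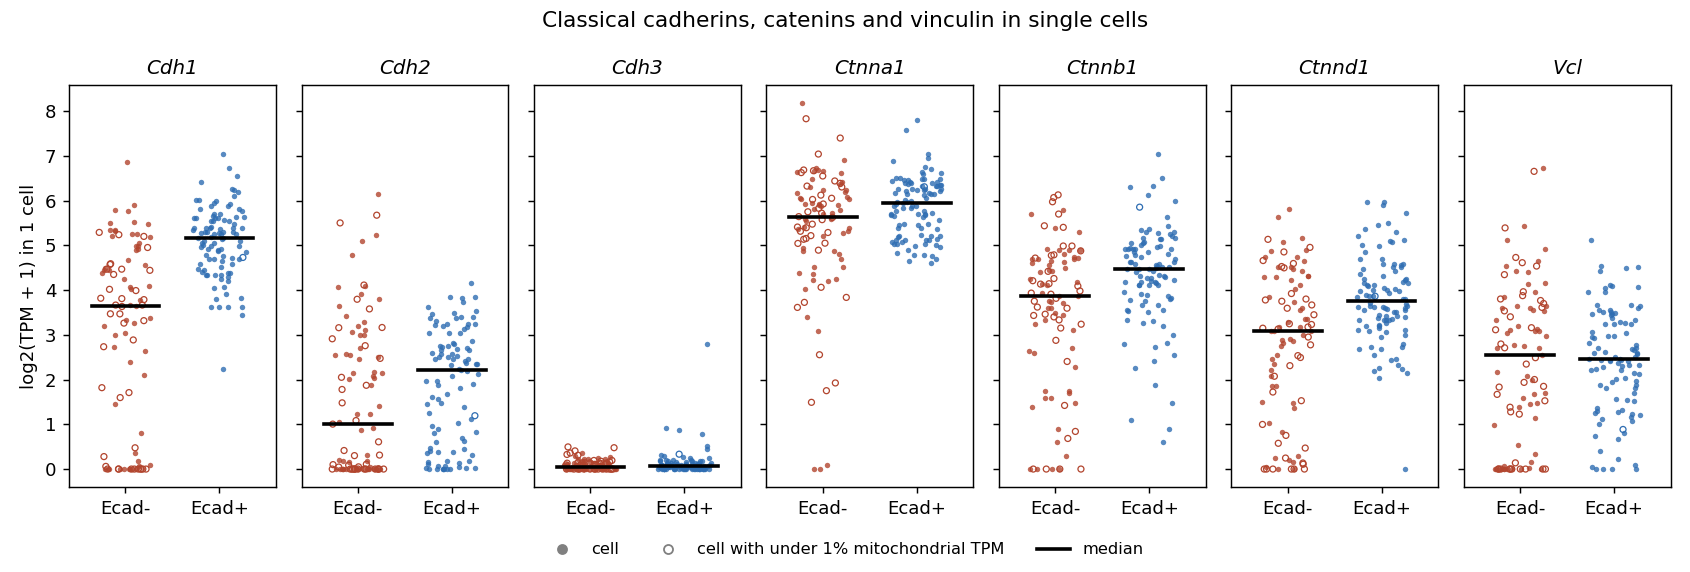
Level of each of the 7 genes in every cell, as log2(TPM + 1), for 97 Ecad- cells (red) and 100 Ecad+ cells (blue); bars are medians and open circles are cells with under 1% mitochondrial TPM. Cdh1 was at 0 in 19 Ecad- cells and in no Ecad+ cell, while the Vcl, Ctnna1 and Cdh2 clouds of both groups overlap over most of their range.

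Cdh1 is the gene of the sorted protein, so its mRNA is not independent of the sort, and an mRNA level cannot check a sort on protein. Cdh1 (ENSMUSG00000000303) lies at chr8:106603351-106670246 in mm10. In Ecad- cells its lowest level was 0, its median 11.5 and its highest 115.7 TPM, and in Ecad+ cells the lowest was 3.70, the median 35.1 and the highest 130.5 TPM. The groups overlapped: 32 Ecad- cells lay below every Ecad+ cell, 65 lay at or above the lowest Ecad+ cell, and 17 lay at or above the Ecad+ median. The first 2 counts rest on 1 low Ecad+ cell, as the next lowest had 9.94 TPM. Cdh1 reached 10 TPM in 52 of 97 Ecad- cells and 98 of 100 Ecad+ cells. A Cdh1 level above 0 was found in 78 Ecad- cells, a share of 80.4% (71.1% to 87.8%), and in all 100 Ecad+ cells (96.4% to 100%), with exact 95% intervals that cover counting error only. Detection was lower in general, since 90.5% of the 7227 genes were above 0 in a lower share of Ecad- cells, with a median difference of -10.4 percentage points.

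Mean Cdh1 was 16.1 ± 18.3 TPM in Ecad- cells (SD, n = 97) and 37.9 ± 21.0 TPM in Ecad+ cells (SD, n = 100), a ratio of -1.19 and a centred ratio of -1.50. Ratios in library sets 1 to 3 were -0.62, -1.05 and -1.96. The set with the lowest ratio also held the most low-share libraries, 22 of 33 Ecad- libraries in set 3, against 6 of 33 in set 1 and 12 of 32 in set 2. Without low-share cells the ratio was -0.91 and the centred ratio -1.04, and Cdh1 was still called lower.

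The catenins were below the all-gene median by less than the threshold over all cells, and all 3 were detected together in 81 of 97 Ecad- cells. β-catenin is both the link of the tail to α-catenin and the transcriptional effector of Wnt signalling. Ctnnb1 (ENSMUSG00000006932, chr9:120929216-120960507) had a lowest level of 0, a median of 13.6 and a highest level of 68.9 TPM in Ecad- cells, and 0.529, 21.2 and 130.4 TPM in Ecad+ cells. Most cells of both groups shared a range, with 10 Ecad- cells below the lowest Ecad+ cell. Its mean was 16.9 ± 15.3 TPM in Ecad- cells and 24.8 ± 19.6 TPM in Ecad+ cells (SD, n = 97 and 100), a ratio of -0.52 and a centred ratio of -0.83. By library set, 1 to 3, it was -0.52, -0.74 and -0.17, and -0.63 was left without low-share cells. Among cells within the gene-number window (45 Ecad- and 59 Ecad+ cells) the centred ratio was -1.10 and Ctnnb1 was called lower. The window did not match the groups, which kept medians of 8974 and 10130 genes.

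p120-catenin holds cadherins at the surface. Ctnnd1 (ENSMUSG00000034101, chr2:84600071-84650765) had a lowest level of 0, a median of 7.53 and a highest level of 55.6 TPM in Ecad- cells, and 0, 12.5 and 62.0 TPM in Ecad+ cells. Both groups reached 0, Ecad- in 8 cells and Ecad+ in 1. Mean Ctnnd1 was 10.8 ± 11.2 TPM in Ecad- cells and 16.4 ± 12.7 TPM in Ecad+ cells (SD, n = 97 and 100), with a ratio of -0.57 and a centred ratio of -0.87. Set by set the ratio was -0.52, -0.41 and -0.78, and it was -0.40 without low-share cells. Exons of Ctnnd1 share 4482 bases with Gm28635, for which no level was used here.

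α-catenin, the actin link, was the most abundant of the 7 genes in both groups. Ctnna1 (ENSMUSG00000037815) had a lowest level of 0, a median of 48.9 and a highest level of 288 TPM in Ecad- cells, and 23.3, 60.3 and 220.2 TPM in Ecad+ cells. In Ecad- cells it spread both ways, with 21 cells below the lowest Ecad+ cell and 2 above the highest. Mean levels of Ctnna1 were 55.8 ± 43.9 TPM in Ecad- cells and 63.6 ± 32.1 TPM in Ecad+ cells (SD, n = 97 and 100), a ratio of -0.19 and a centred ratio of -0.49. The measured ratio changed sign between sets, at -0.49, 0.25 and -0.36, while the centred ratio was -0.65, -0.19 and -0.62.

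Vinculin, which α-catenin recruits at tensed junctions and which also sits in focal adhesions, had a measured ratio above 0 that depended on library set. Vcl (ENSMUSG00000021823, chr14:20929398-21033676) had a lowest level of 0, a median of 4.87 and a highest level of 105.4 TPM in Ecad- cells, and 0, 4.46 and 33.9 TPM in Ecad+ cells. Medians were close, and 4 Ecad- cells lay above every Ecad+ cell. Its mean was 9.51 ± 16.3 TPM in Ecad- cells and 6.24 ± 5.91 TPM in Ecad+ cells (SD, n = 97 and 100), with a ratio of 0.54 and a centred ratio of 0.23. The ratio was highest in library set 2, at 1.19 against 0.16 in set 1 and 0.17 in set 3, and without set 2 it was 0.11. Its centred ratio was 0.21 with means of log values and -0.29 among cells within the gene-number window. Vcl and Ap3m1 share 2090 exon bases on opposite strands and these libraries do not mark strand. Ap3m1 averaged 26.1 TPM in Ecad- cells and 20.2 TPM in Ecad+ cells, and its part in the Vcl values was not tested.

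**Figure D2:**
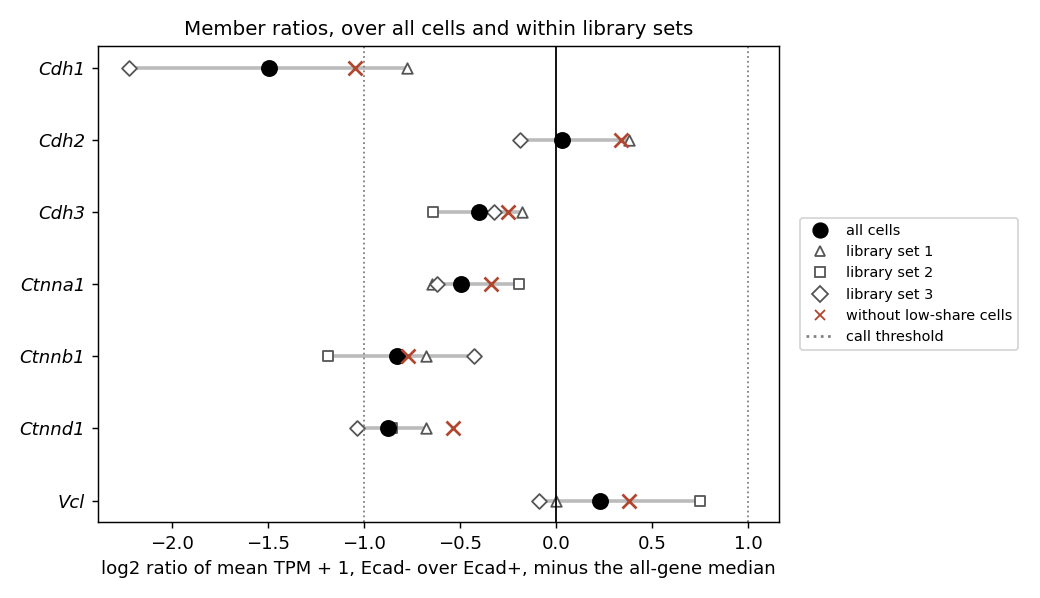
Centred log2 ratio of mean TPM + 1, Ecad- over Ecad+, for each of the 7 genes (x axis), over all cells (filled circles), within the 3 library sets (open symbols) and without cells with under 1% mitochondrial TPM (crosses); dotted lines mark the size of 1 needed for a call, and grey lines span the sets. Cdh1 lies at -1.50, Ctnnb1 and Ctnnd1 at -0.83 and -0.87, and Cdh2 and Vcl at 0.03 and 0.23; Cdh2 and Cdh3 are below the expression floor.

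Promoter windows of Ctnnb1 and Ctnnd1 are shown because these catenins lay lowest among the partners, and E-box motifs in promoters are bound by the Snail, Slug and ZEB repressors of E-cadherin. RefSeq windows on GRCm38.p6, from 250 bases before to 50 after a start site, matched 3 of the 7 genes (Ctnnb1, Ctnnd1 and Vcl), with 5 windows in all. The first is chr9:120933328-120933627 on the plus strand and the second chr2:84658928-84659227 on the minus strand, written 5′ to 3′, with the CANNTG match in capitals.
Ctnnb1: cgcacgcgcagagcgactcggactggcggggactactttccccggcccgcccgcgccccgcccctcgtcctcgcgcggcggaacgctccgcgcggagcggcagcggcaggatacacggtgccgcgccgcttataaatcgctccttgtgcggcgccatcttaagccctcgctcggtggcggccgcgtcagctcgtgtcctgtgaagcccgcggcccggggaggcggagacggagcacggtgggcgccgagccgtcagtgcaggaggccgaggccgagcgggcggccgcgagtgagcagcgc
Ctnnd1: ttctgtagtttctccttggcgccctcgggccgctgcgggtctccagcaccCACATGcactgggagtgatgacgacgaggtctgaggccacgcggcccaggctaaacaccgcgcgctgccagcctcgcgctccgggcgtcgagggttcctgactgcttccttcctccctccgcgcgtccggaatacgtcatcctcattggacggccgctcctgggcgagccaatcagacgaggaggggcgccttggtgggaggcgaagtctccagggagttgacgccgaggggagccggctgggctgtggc
The motif CAGGTG, searched on both strands, was in 0 of the 5 windows and in 20.3% of all 32544 windows. The looser CANNTG, which includes CAGGTG and reads the same on both strands, occurred once, in the Ctnnd1 window shown, and was in 72.3% of all windows. That window lies outside the Ctnnd1 coordinates given above. The other Ctnnd1 window, chr2:84650691-84650990, overlaps their 5′ end, had 0 CANNTG matches and is not shown. These are letter matches and not sites of binding.

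Most Ecad- cells with Cdh1 at 0 still had all 3 catenins above 0, some of them at trace levels. All 3 catenins were above 0 in 81 of 97 Ecad- cells and 99 of 100 Ecad+ cells, and Cdh1 and all 3 together in 67 of 97 and 99 of 100. Among the 19 Ecad- cells with Cdh1 at 0, of which 10 were low-share cells, Ctnna1 was above 0 in 18, Ctnnb1 in 16, Ctnnd1 in 16 and all 3 in 14. Among the other 78 Ecad- cells, all 3 were above 0 in 67. Vcl was above 0 in 14 of these 19 cells and Cdh2 in 12. Levels above 0 include traces, as Ctnnd1 was at 0.0388, 0.0981, 0.148, 0.186, 0.229 and 0.384 TPM in some of the 19. Over all 97 Ecad- cells Ctnnd1 was above 0 in 89 and reached 1 TPM in 76, against 99 and 99 of 100 Ecad+ cells. A 0 in a file without counts says only that a gene is listed at 0.

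**Figure D3:**
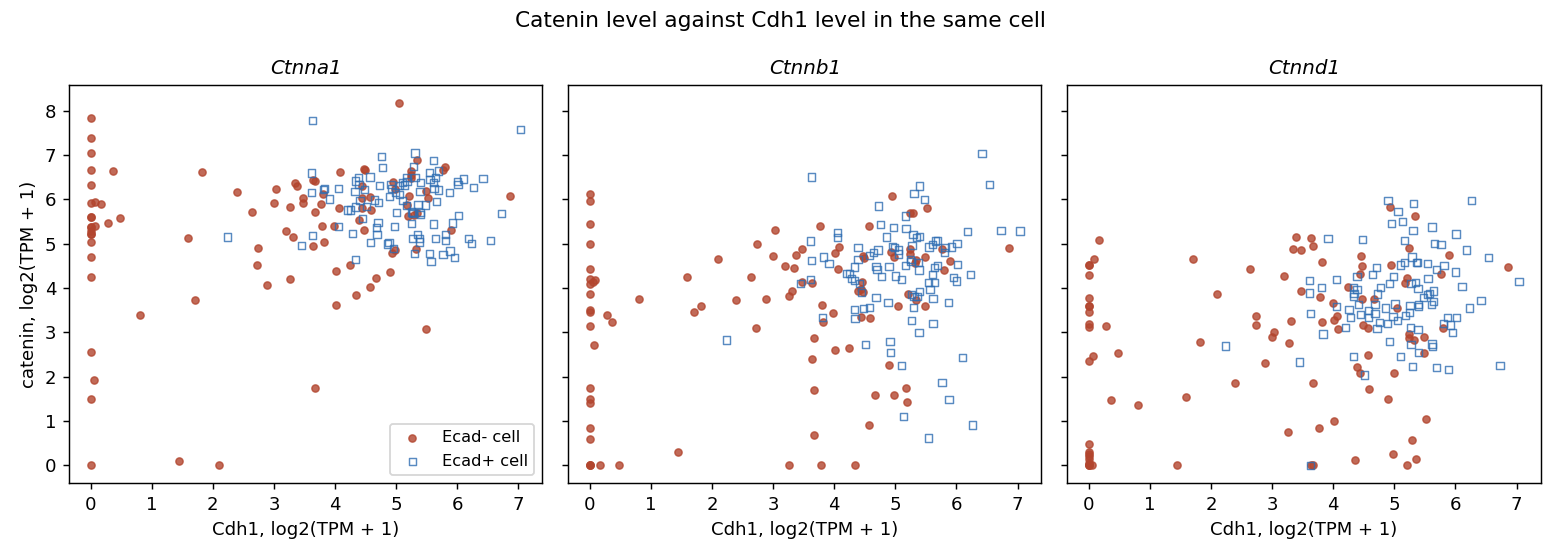
Ctnna1, Ctnnb1 and Ctnnd1 against Cdh1 in the same cell, both axes as log2(TPM + 1), for 97 Ecad- cells (red circles) and 100 Ecad+ cells (blue squares). Of the 19 Ecad- cells in the column at a Cdh1 of 0, 18 had Ctnna1 above 0.

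Across cells, the correlation of Cdh1 with the catenins differed between groups, cell filters and library sets. Spearman's rho between Ctnnb1 and Cdh1 was 0.27 over 97 Ecad- cells and 0.08 over 100 Ecad+ cells, and it was 0.48 over the 57 Ecad- cells that were not low-share cells. Within library sets 1 to 3 of the Ecad- libraries it was 0.40, 0.43 and -0.06. Ctnna1 had a rho with Cdh1 of 0.22 in Ecad- cells and -0.04 in Ecad+ cells. Its rho was 0.33 in Ecad- cells without low-share cells, and 0.35, 0.34 and -0.02 in sets 1 to 3 of the Ecad- libraries. The other values were, for Ecad- and then Ecad+ cells, 0.18 and 0.14 for Ctnnd1 and -0.02 and 0.28 for Vcl. For 3735 genes that averaged 20 TPM or more and were detected in 50% or more of each group, the 5th and 95th percentiles of rho with Cdh1 were -0.16 and 0.33 for Ecad-, against -0.21 and 0.21 for Ecad+. Cells of a group share library sets and the scaling of TPM, so these are descriptions. Among the partners, Ctnna1 and Ctnnb1 had the highest rho, at 0.44 in Ecad- cells and 0.26 in Ecad+ cells.

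The genes whose pattern over cells was most like that of Cdh1, by the smaller of the rho values in the groups, were Abcd3, a peroxisomal transporter (0.48 in Ecad- cells and 0.40 in Ecad+ cells), Itm2b, a membrane protein (0.35 and 0.33), Asah1, the lysosomal acid ceramidase (0.44 and 0.32), Itfg1 (0.35 and 0.29) and Tm9sf3 (0.28 and 0.31). Ctnna1 and Ctnnb1 were not among these 5, and Ctnnd1, which averaged 13.6 TPM over all cells, was under the 20 TPM needed to be ranked.

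Relative to classical cadherin mRNA, catenin mRNA was higher in Ecad- cells in library sets 2 and 3, but not in set 1. The divisor, the summed mean of Cdh1, Cdh2 and Cdh3, was 21.6 TPM in Ecad- cells and 42.2 TPM in Ecad+ cells. Cdh1 made up 74.3% of it in the former and 89.9% in the latter, so these ratios are not independent of the sort. Ctnnb1 plus plakoglobin (Jup), which can take its place on the tail, came to 1.79 TPM per TPM of classical cadherin in Ecad- cells and 1.19 in Ecad+ cells. Without low-share cells these ratios of means were 1.27 and 1.18, and they were 1.71 and 1.78 in set 1, 1.22 and 0.991 in set 2, and 3.36 and 1.11 in set 3. Ctnna1 came to 2.58 per TPM of cadherin in Ecad- cells and 1.51 in Ecad+ cells, or 2.11 and 1.50 without low-share cells and 2.26 and 2.36 in set 1. For Ctnnd1 the ratio was 0.497 in Ecad- cells and 0.389 in Ecad+ cells, and for Vcl 0.439 and 0.148. In set 1, Ctnnd1 stood at 0.483 in Ecad- cells and 0.528 in Ecad+ cells. Over all cells the catenin means were themselves lower in Ecad- cells, so their higher ratios there came from the lower divisor. Ctnnb1 plus Jup averaged 38.8 TPM in Ecad- cells against 50.1 TPM in Ecad+ cells, and Ctnna1 55.8 against 63.6 TPM. Ctnna1 in set 2 went the other way, at 60.8 against 51.0 TPM. These are ratios of mRNA levels with no interval, and protein was not measured beyond the sort.

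No other cadherin examined was called higher, but Cdh2, Cdh3 and 25 of the 26 other cadherin genes examined lay below the expression floor. Genes below the floor could not be called. N-cadherin, the usual partner of Cdh1 in a switch, was low in both groups and above 0 in fewer Ecad- cells. Cdh2 (ENSMUSG00000024304) had a lowest level of 0, a median of 1.01 and a highest level of 69.5 TPM in Ecad- cells, and 0, 3.62 and 16.9 TPM in Ecad+ cells. Thus the median was lower in Ecad- cells, while 6 Ecad- cells lay above every Ecad+ cell. Mean Cdh2 was 5.49 ± 11.2 TPM in Ecad- cells and 4.13 ± 3.92 TPM in Ecad+ cells (SD, n = 97 and 100), a ratio of 0.34 and a centred ratio of 0.03, with set ratios of 0.54, 0.48 and 0.07. The centred ratio was -0.05 with means of log values, -0.24 with a 10% trimmed mean and 0.34 without low-share cells. The share of cells with Cdh2 above 0 was 68.0% for Ecad- (exact 95% bounds 57.8% and 77.1%) and 93.0% for Ecad+ (86.1% and 97.1%).

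Some Ecad- cells had more Cdh2 than Cdh1. Cdh2 exceeded Cdh1 in 20 of 97 Ecad- cells, against 0 of 100 Ecad+ cells, and it did so at 10 TPM or more in 8 Ecad- cells. These counts are not independent of the sort, since Cdh1 was at least 3.70 TPM in every Ecad+ cell. Where Cdh1 was at 0, any Cdh2 above 0 counted. That held for 12 of 19 such Ecad- cells, with Cdh2 as low as 0.112 TPM. Taken alone, Cdh2 reached 10 TPM in 14 of 97 Ecad- cells and 9 of 100 Ecad+ cells. Of the summed classical cadherin mRNA, Cdh2 made up 25.4% in Ecad- cells and 9.78% in Ecad+ cells, with Cdh1 the term that differed most between the groups.

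P-cadherin mRNA was near 0 in both groups. Cdh3 (ENSMUSG00000061048, chr8:106510891-106557297) lies 46053 bases upstream of Cdh1, with 1 protein-coding gene between them. It had a median of 0.0398 and a highest level of 0.409 TPM in Ecad- cells, and a median of 0.0468 and a highest level of 5.96 TPM in Ecad+ cells. It reached 1 TPM in 0 of 97 Ecad- cells and 1 of 100 Ecad+ cells, and its ratio of -0.10 is therefore a comparison of traces.

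Of the 26 other cadherin genes examined, 23 had a mean under 1 TPM, 6 of them at 0 in every cell. Only Cdh17, the liver-intestine cadherin, lay above the floor, and it was called lower. Its mean was 34.8 TPM in Ecad- cells and 101.7 TPM in Ecad+ cells, a ratio of -1.52 and a centred ratio of -1.83, or -1.42 without low-share cells. Its level was above 0 in 71 of 97 Ecad- cells and 100 of 100 Ecad+ cells. Cdh13, which lacks a cytoplasmic tail, and Fat1, an atypical cadherin, averaged 2.76 and 1.83 TPM in Ecad- cells, against 6.27 and 4.61 TPM in Ecad+ cells; they were below the floor and were picked after their values were seen. Cdh1, Cdh2, Cdh3 and these 26 genes together averaged 62.4 TPM in Ecad- cells and 155.9 TPM in Ecad+ cells. Of this sum, 25.8% and 24.3% came from Cdh1 and 55.9% and 65.2% from Cdh17.

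**Figure D4:**
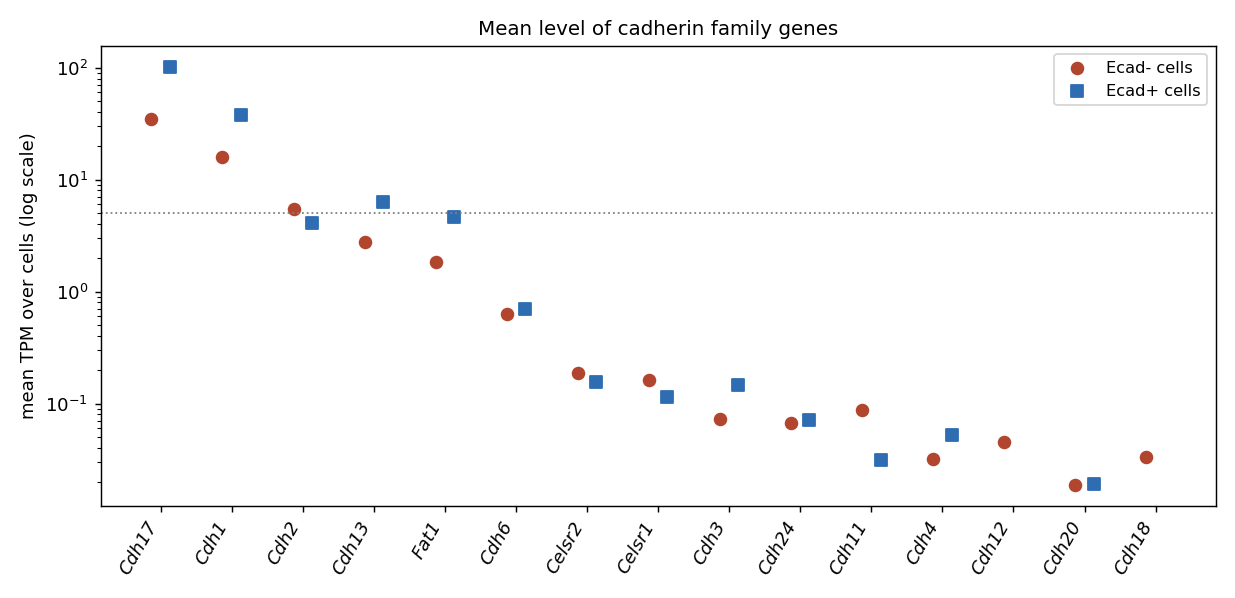
Mean TPM over cells (log scale) of those examined cadherin genes with the highest levels, for Ecad- cells (red circles) and Ecad+ cells (blue squares). The dotted line is the floor of 5 TPM, and a group mean of 0 has no symbol. Cdh17 and Cdh1 lie highest in both groups and lower in Ecad- cells, and Cdh2 lies near 5 TPM in both.

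In Ecad- cells the order of mean levels was Ctnna1, Ctnnb1, Cdh1, Ctnnd1, Vcl, Cdh2 and Cdh3, and in Ecad+ cells Ctnna1, Cdh1, Ctnnb1, Ctnnd1, Vcl, Cdh2 and Cdh3. Neighbours in these orders differed by less than the SD over cells of the higher one, except for Cdh2 over Cdh3 in Ecad+ cells. Between the paired libraries taken as 1 cell, the median absolute log2 difference was 0.07 for Cdh1, 0.41 for Ctnna1, 0.34 for Ctnnb1 and 0.27 for Ctnnd1 over the 5 pairs.

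Relatives of the catenins lay below the all-gene median without a call. Of 7 relatives, 3 were above the floor, with a median centred ratio of -0.51 and 0 called. Jup (plakoglobin) averaged 21.8 TPM in Ecad- cells and 25.3 TPM in Ecad+ cells, with a centred ratio of -0.51. Pkp4, a p120 relative, had -0.48 and Ctnnal1, an α-catenin-like gene, -0.92. Among 27 genes that anchor the junction to actin and to tight junctions, 15 were above the floor and 0 were called. Their median was -0.36, or -0.20 without low-share cells. The actin regulator Vasp had a centred ratio of -0.97, Pdlim1 -0.97 and the myosin heavy chain Myh9 -0.77. Without low-share cells these were -0.37, -0.49 and -0.48. By library set, 1 to 3, Vasp had -0.47, -0.75 and -1.96, and Pdlim1 -0.71, -0.19 and -1.74. Over all cells, 2 of the 15 were above the all-gene median, Zyx (zyxin) at 0.76 and Mllt4 (afadin) at 0.68. Both were picked after their values were seen, and they had 0.52 and 0.25 without low-share cells.

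Genes for the turnover of cadherins were spread on both sides. Of 21, 14 were above the floor with a median of 0.26, or -0.08 without low-share cells, and 1 was called higher and 0 lower. The called gene was Mdm2, a ubiquitin ligase best known for p53, with 49.6 TPM in Ecad- cells and 13.9 TPM in Ecad+ cells and a centred ratio of 1.45. It was 0.96 without low-share cells, below the threshold. Cbll1 (Hakai), a ubiquitin ligase of E-cadherin, averaged 27.2 TPM in Ecad- cells and 11.5 TPM in Ecad+ cells, a centred ratio of 0.87. Rab5a, of early endosomes, had 0.85 and the protease Adam15 -0.68.

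The β-catenin destruction complex had 4 of 8 genes above the floor, with a median of 0.18 and 0 called; Apc had a centred ratio of 0.40, Csnk1a1 0.24, Gsk3b 0.12 and Axin1 -0.28. Without low-share cells the signs of Apc (-0.39) and Axin1 (0.11) were the other way. Of 16 Wnt target genes, 5 were above the floor, with a median of -0.34, and 4 others, Axin2 among them, were at 0 in every cell. Ccnd1, the gene of cyclin D1, which many other signals also drive, was the 1 called lower, with 68.0 TPM in Ecad- cells and 181.1 TPM in Ecad+ cells and a centred ratio of -1.71. Cd44 had -0.42, Tcf7l2 -0.34 and Myc -0.08.

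Regulators of Cdh1 itself were examined last. Of 9 repressors, 2 were above the floor, and Snai2 (Slug) was called higher, with 22.4 TPM in Ecad- cells and 3.51 TPM in Ecad+ cells and a centred ratio of 2.07, or 1.66 without low-share cells. It was above 0 in 59 of 97 Ecad- cells and 49 of 100 Ecad+ cells. Without low-share cells the shares were close, at 28 of 57 Ecad- and 48 of 99 Ecad+ cells, against 31 of the 40 low-share Ecad- cells. Tcf4 (E2-2) averaged 10.6 TPM in Ecad- cells and 4.46 TPM in Ecad+ cells, with a centred ratio of 0.78, or 1.02 without low-share cells. Zeb1 and Twist1, below the floor and picked after their values were seen, averaged 4.20 and 4.77 TPM in Ecad- cells, against 4.20 and 4.92 TPM in Ecad+ cells. Of 13 activators and epithelial regulators, 5 were above the floor with a median of -0.03 and 0 called. Foxa2 had -0.36, Elf3 -0.34, Ehf 0.17 and Klf4 0.06. Without low-share cells these were -0.05, -0.09, 0.86 and -0.05. Ehf changed sign between library sets, at centred ratios of 0.45, -1.19 and 0.75 in sets 1 to 3.

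**Figure D5:**
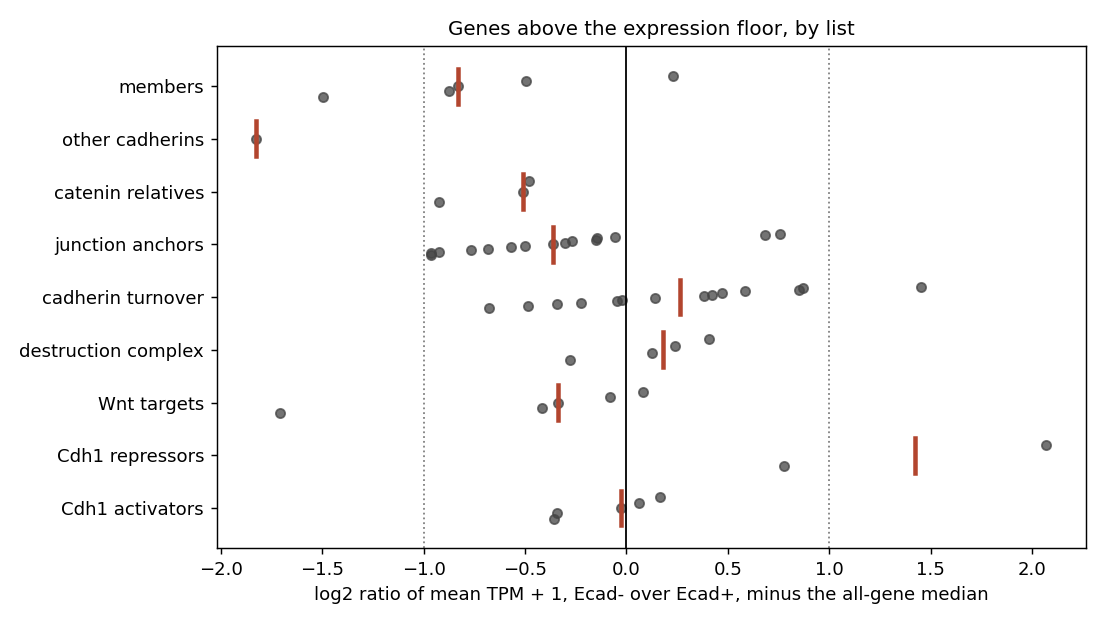
Centred log2 ratio, Ecad- over Ecad+, of each gene above the expression floor (x axis; 1 point a gene), by list; red bars are list medians and dotted lines mark the size of 1 needed for a call. The list medians run from -1.83 for the single cadherin Cdh17 to 1.42 for 2 Cdh1 repressors.

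Most ductal epithelial markers above the floor were also called lower in Ecad- cells. Of 10 ductal epithelial markers, 7 were above the floor, all 7 below the all-gene median and 5 called lower, with a median of -1.38, or -0.95 without low-share cells. Krt19 averaged 290.0 TPM in Ecad- cells and 898.5 TPM in Ecad+ cells, and Cldn7 21.7 and 111.3 TPM; Krt7 and Krt8 had centred ratios of -2.30 and -1.38. Without low-share cells, 2 of the 5 called genes were under the threshold, Krt8 at -0.95 and Muc1, a mucin named after its values were seen, at -0.37 in place of -1.01. Their summed level ran from 5.37 to 12559 TPM in Ecad- cells and from 1021 to 12540 TPM in Ecad+ cells. Their part in the Cdh1 and catenin values was not tested.

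Markers of other cell types were mostly below the expression floor, which is not the same as absent. No fibroblast marker of 10 and no endothelial marker of 7 was above the floor, and 4 fibroblast markers were at 0 in every cell. The endothelial marker Vwf, picked after its values were seen, was above 0 in 68 Ecad- and 71 Ecad+ cells. Its means were 3.90 and 0.252 TPM, a ratio of 1.97, or 0.59 without low-share cells. The fibroblast sum ran from 0 to 27.4 TPM in Ecad- cells and from 0 to 5.03 TPM in Ecad+ cells, and the endothelial sum from 0 to 67.9 and from 0 to 1.11 TPM. Of 10 immune markers, 3 were at 0 in every cell and only Cd68, a lysosomal protein, was above the floor; it was called higher, with 30.0 TPM in Ecad- cells and 6.35 TPM in Ecad+ cells. The immune sum ran from 0 to 370.1 TPM in Ecad- cells and from 0 to 125.8 TPM in Ecad+ cells. Of 7 hepatocyte markers, the line having come from liver, Apob was called lower (centred ratio -1.39) and Ttr had 0.10; the median of these 2 was -0.64, Alb was above 0 in 1 Ecad- cell and no Ecad+ cell, and the sum ran from 0 to 641.8 TPM in Ecad- cells and from 0.0189 to 252.7 TPM in Ecad+ cells.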

How the data were processed

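Single cells were captured on a Fluidigm C1, amplified with the SMARTer kit and sequenced as Nextera XT libraries, per the labels' protocols. FastQC 0.11.5, kallisto and the mm10 build are listed in the submitters' processing notes. The authors deposited log2 values for 28987 genes in 202 libraries. With the log undone and 1 subtracted, library totals ran from 933711 to 987134, so the deposited values were read as log2(TPM + 1). This keeps no read depth, so precision per level is unknown, and the deposited comparison columns were not used.

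Groups came from the labels. Library pairs with a Pearson correlation above 0.97 were averaged (the next closest pair had 0.939). Group levels were arithmetic means of TPM over cells, with a pseudocount of 1 TPM in the ratio, and the shares carry 95% Clopper-Pearson intervals. As each group is 1 sample, no test was made. A gene was called at a centred log2 ratio of 1 with that sign in the 3 library sets. Identifiers matched GENCODE M21 for 27458 genes, which gave the mm10 coordinates. Calculations used Python 3.11.15, numpy 2.4.6, pandas 2.3.3 and scipy 1.17.1, and were tested on simulated data.

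The 7 genes and the lists were chosen with earlier results of these data known. Named genes are the 7, up to 4 genes above the floor per list with the largest absolute centred ratio, and the 5 genes most like Cdh1; Zeb1, Twist1, Zyx, Mllt4, Muc1, Cdh13, Fat1, Axin2, Alb, Ptprc and Col3a1 are named besides, and 1 gene that the rule names is not reported here. Alternatives were other means, scalings, pseudocounts, floors, cell filters and each library set left out.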

Additional observations from a re-analysis of the deposited data

How the results depend on the processing

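Over 13 alternatives, the Cdh1 ratio stayed below 0 (-2.07 to -0.88) and Cdh1 was called lower in all 13. Ratios of Ctnna1, Ctnnb1 and Ctnnd1 were below 0 in 13 of 13 as well. The one call among them was Ctnnb1 within the gene-number window, at a centred ratio of -1.10 over 45 Ecad- and 59 Ecad+ cells. Means of log values gave -2.07 for Cdh1, -0.34 for Cdh2, -0.84 for Ctnnb1, -1.02 for Ctnnd1 and -0.075 for Vcl. Rescaling without mitochondrial and ribosomal protein genes gave -0.027 for Cdh2, -0.21 for Cdh3, -0.84 for Ctnnb1 and -0.80 for Ctnnd1. A trimmed mean gave -0.028 for Cdh2 and -0.0010 for Cdh3. A pseudocount of 0.1 TPM gave -0.51 for Cdh3 and one of 10 TPM -0.35 for Ctnnd1. Against 537 genes called higher and 520 lower, a pseudocount of 10 TPM gave 257 and 217, no centring 1001 and 269, a floor of 50 TPM 148 and 160, and leaving out low-share cells 216 and 286, while no floor gave 1325 higher. The all-gene median was -0.28 with means of log values and 0.0084 with rescaling, in place of 0.31, so these ratios hold a shift of all genes; centred, rescaling gave -0.84 for Ctnnb1 and -0.81 for Ctnnd1, against -0.83 and -0.87. The cause of the other moves was not tested. No paired analysis was possible because each group is 1 sample and the results come from no test; with the 3 library sets, which hold both groups, weighted equally, the Cdh1 ratio was -1.13. Without read depth, levels near 0, as for Cdh3, cannot be bounded.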

Other observations

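The 8 Ecad- cells in which Cdh2 exceeded Cdh1 and reached 10 TPM were picked after their values were seen, and they form no group of the study. Their Cdh2 ran from 12.9 to 69.5 TPM. Cdh1 was at 0 in 5 of them, and it was 16.0 TPM in the cell with 69.5 TPM of Cdh2 and 32.0 TPM in the cell with 36.8 TPM of Cdh2. The cell with 36.8 TPM of Cdh2 also had the highest Ctnna1 of all cells, at 288 TPM. The cell with 44.3 TPM of Cdh2 had 226.2 TPM of Ctnna1 and 99.6 TPM of Vcl. Cdh17 ranged from 0 to 278.6 TPM among the 8, so high Cdh2 occurred both with and without this cadherin. They came from all 3 library sets (2, 4 and 2 cells), and 3 were low-share cells.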
